A study of Mus musculus with 2 samples.

Results

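The Bcl2-family genes that hold back mitochondrial cell death, and the genes for Bax and Bak, which carry it out, were examined in CH12.LX, a long-established line grown from a mouse B-cell lymphoma. The members were chosen by symbol: the survival genes Bcl2, Bcl2l1, Bcl2l2, Mcl1, Bcl2a1a, Bcl2a1b and Bcl2a1d and the effector genes Bax and Bak1. They make up 9 of the 43346 annotated genes in the deposited tables, and each matched 1 gene by its identifier. RNA longer than 200 nt was sequenced in 2 libraries with ERCC spike-in RNAs added. The libraries are biological replicates 1 and 2 from separate biosamples and form 1 group, so no comparison between conditions exists. The line is immortalized, its strain is B10.H-2aH-4bp/Wts, it has no stated age or treatment, and the labels describe it as the analog of the human line GM12878. The labels call the assay total RNA-seq but also polyA+, and which holds was not settled.

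Survival proteins of this family bind and restrain Bax and Bak at the outer membrane of mitochondria. BH3-only proteins, which relay stress signals, occupy the survival proteins or activate Bax and Bak directly, and the activated effectors form pores that release cytochrome c and start the caspase cascade. B cells depend on different survival members at different stages: Mcl1 is needed at many of them, Bcl2l1 (Bcl-xL) supports developing B cells, Bcl2 supports resting mature cells, and Bcl2a1 (A1) is induced by NF-kB on activation. The mouse genome carries several nearly identical Bcl2a1 genes that arose by duplication.

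The libraries held 24469094 and 23586580 expected counts, that is, estimated numbers of reads. They differed beyond counting error, with a chi-square of 10.1 per degree of freedom over 9859 genes with whole counts, and were kept as 2 samples. All 7 B-cell marker genes, among them Ms4a1 and Cd79b, were at 1 TPM or more in each replicate. TPM is a relative transcript level, corrected for length, whose sum over all features is fixed. None of 6 T-cell, 4 NK-cell, 10 myeloid and mast-cell or 4 stromal markers reached that level in both. Epcam, the highest of the stromal list, stood at 0.84 and 1.23 TPM. Itgam, the highest of the myeloid and mast-cell list, held 34 counts in each library. Among 4 erythroid and megakaryocyte markers Hba-a1 alone reached 1 TPM in both, at 4.03 and 3.16 TPM, while Cd3e, Thy1, S100a8 and Pf4 had 0 counts.

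The 3 Bcl2a1 copies are shown first, because the levels below rest on telling them apart. They lie on chromosome 9 of GRCm38 (mm10), within 485 kb: Bcl2a1d (ENSMUSG00000099974.1) at chr9:88723285-88731914 on the minus strand, Bcl2a1a (ENSMUSG00000102037.1) at chr9:88956900-88962419 on the plus strand and Bcl2a1b (ENSMUSG00000089929.1) at chr9:89199209-89207827 on the plus strand. Each has 1 annotated transcript with a coding sequence of 516 bases before the stop codon. The coding strand is given for bases 1 to 100, counted from the A of the start codon, in the reference genome. Capitals mark the 7 positions at which the copies differ.
Bcl2a1a, chr9:88957051-88957150: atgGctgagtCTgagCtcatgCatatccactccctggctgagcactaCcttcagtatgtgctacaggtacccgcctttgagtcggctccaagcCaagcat
Bcl2a1b, chr9:89199360-89199459: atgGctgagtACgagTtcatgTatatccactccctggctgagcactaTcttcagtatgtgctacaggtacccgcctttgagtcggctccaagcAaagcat
Bcl2a1d, chr9:88731620-88731719: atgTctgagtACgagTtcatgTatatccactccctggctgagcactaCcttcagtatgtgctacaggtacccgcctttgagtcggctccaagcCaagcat

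Read from Bcl2a1a to Bcl2a1d, the window holds G4T, C11A, T12C, C16T and C22T, and from Bcl2a1a to Bcl2a1b it holds C11A, T12C, C16T, C22T, C48T and C94A. Over the whole coding sequence 12 positions differ among the copies. Bcl2a1a and Bcl2a1b differ at 11 positions (97.9% identity), Bcl2a1a and Bcl2a1d at 7 (98.6%), and Bcl2a1b and Bcl2a1d at 6 (98.8%). More of them lie in the first 100 bases than in the rest, and the longest run identical in all 3 copies spans 217 bases. Whether CH12.LX carries the reference bases at these positions was not examined.

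The sequence that a copy shares with other genes depended on the length considered. At 76 bases, 54.7% of the subsequences of Bcl2a1a, 67.9% of Bcl2a1b and 67.3% of Bcl2a1d also occurred in a transcript of another gene. At 200 bases the shares were 18.5%, 32.8% and 17.3%. The deposited effective lengths were shorter than the transcripts by 222.83 and 222.29 bases in replicates 1 and 2 for each copy. At 200 bases what Bcl2a1b shared lay in Gm29094, a gene model on the same strand that overlaps its exons. With the other copies alone Bcl2a1b shared 2.91% of its 200-base subsequences, against 43.0% at 76 bases.

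**Figure D1:**
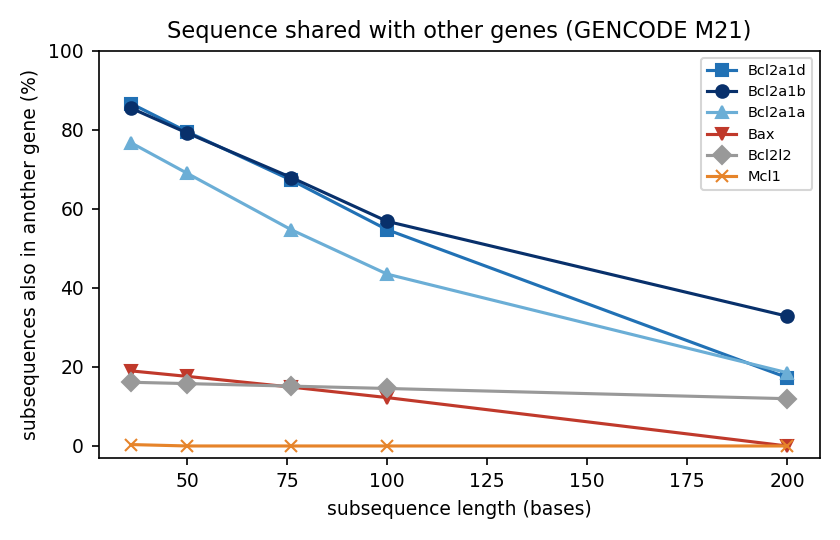
Percent of the subsequences of a member's main transcript that also occur in a transcript of another gene (vertical axis), by subsequence length in bases (horizontal axis), in GENCODE M21. The 3 Bcl2a1 copies lie between 54.7% and 67.9% at 76 bases, Bax at 14.9% and Bcl2l2 at 15.1%, and Mcl1 at 0.

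Among the survival genes the Bcl2a1 copies had the highest RNA levels and Bcl2l2 the lowest. Of the 9 members, 8 reached 1 TPM in both replicates, all but Bcl2l2, where 25.4% of all annotated genes did. All 9 are protein-coding genes, as are 21474 of the 43346 annotated genes, so these shares do not compare like with like. The median level of the 9 was 124 TPM, that of the expressed genes 17.8 TPM. In bulk RNA, fewer cells with a transcript and less RNA per cell cannot be told apart. Errors below are SDs over the 2 libraries.

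Bcl2a1b was the most abundant member, at 647 TPM in replicate 1 and 697 TPM in replicate 2, a mean of 672 ± 35.1 TPM. Bcl2a1d followed at 375 and 398.5 TPM (387 ± 16.9 TPM) and Bcl2a1a at 223 and 239 TPM (231 ± 11.2 TPM). By mean TPM the copies ranked 207, 352 and 604 among all genes. For no pair of copies did the replicates overlap.

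The proportions among the copies differed less between replicates than the levels did. Bcl2a1b made up 52.0% and 52.2% of the summed TPM of the 3 copies, Bcl2a1d 30.1% and 29.9%, and Bcl2a1a 17.9% in both. The ratio of Bcl2a1b to Bcl2a1a was 2.91 ± 0.0106 and that of Bcl2a1d to Bcl2a1a 1.68 ± 0.00819. Because the copies divide shared reads by estimation, these proportions carry an uncertainty that the replicate spread does not contain.

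The authors' posterior SD of the count, which measures the uncertainty of dividing shared reads, was small beside the gaps between the copies. For Bcl2a1a it was 18.1 and 18.8 counts on 2776 and 2856 expected counts, or 0.652% and 0.657% of the posterior mean. For Bcl2a1d it was 0.380% and 0.395% of 5012 and 5119.94 counts, and for Bcl2a1b 0.173% and 0.162% of 8035 and 8308 counts. The replicate SDs of those counts, which were not corrected for library size, were larger, at 56.3 for Bcl2a1a, 76.4 for Bcl2a1d and 193 for Bcl2a1b. No member exceeded a posterior SD of 5% in either replicate, where 3.10% of the 11661 genes with a mean of 20 or more expected counts did. For 9 members that is near the share over all genes. Bcl2l2 came closest to the limit, at 2.10% and 4.63%. The posterior SD assumes the reference sequences and annotation that the authors used.

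Few counts were assigned to related gene models. Gm29094, which shares exons with Bcl2a1b, held 62.19 and 74.27 counts (7.56 ± 1.16 TPM) with posterior SDs of 7.34 and 8.89 counts. Bcl2a1c, a further copy, held 0 and 6 counts. How reads common to Gm29094 and Bcl2a1b were divided cannot be checked from the deposited values.

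Mcl1 (ENSMUSG00000038612.12, chr3:95658788-95663176, plus strand), a short-lived survival protein, was the next in level at 169 and 167 TPM, a mean of 168 ± 1.10 TPM. It had the most counts of any member, 11515 and 10918, spread over a transcript several times longer than those of the copies. Per length, the 3 Bcl2a1 copies together exceeded Mcl1 by 7.66-fold ± 0.426. The lowest copy, Bcl2a1a, exceeded Mcl1 by 1.37-fold ± 0.0757.

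Bcl2l1 (ENSMUSG00000007659.14, chr2:152780668-152831728, minus strand), the gene of Bcl-xL, stood at 16.4 TPM in replicate 1 and 10.5 TPM in replicate 2, a mean of 13.4 ± 4.21 TPM. Bcl2 (ENSMUSG00000057329.7, chr1:106538178-106714274, minus strand), the founding member of the family, stood at 6.67 and 7.34 TPM, a mean of 7.005 ± 0.474 TPM. Both replicates of Bcl2l1 lay above both of Bcl2, and the ratio was uneven at 2.46 and 1.43. Mcl1 exceeded Bcl2 by 24.1-fold ± 1.79 and Bcl2l1 by 13.2-fold ± 4.04. The antisense gene D630008O14Rik, whose exons overlap those of Bcl2, held 0 and 1 counts.

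Bcl2l2 (ENSMUSG00000089682.5, chr14:54883377-54888234, plus strand), which encodes Bcl-w, was near the limit of detection at 0.38 and 0.24 TPM, a mean of 0.31 TPM. By the authors' posterior mean TPM its mean was 0.785, 2.53 times as high. It rested on 26 counts in replicate 1 (95% Poisson interval 17.0 to 38.1) and 16 in replicate 2 (9.15 to 26.0). These intervals overlap and cover counting error only, since the reads carry no molecular identifiers. Gm20521, a model that joins Bcl2l2 to its neighbour Pabpn1 and shares 15.1% of the 76-base subsequences of Bcl2l2, held 0 counts.

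**Figure D2:**
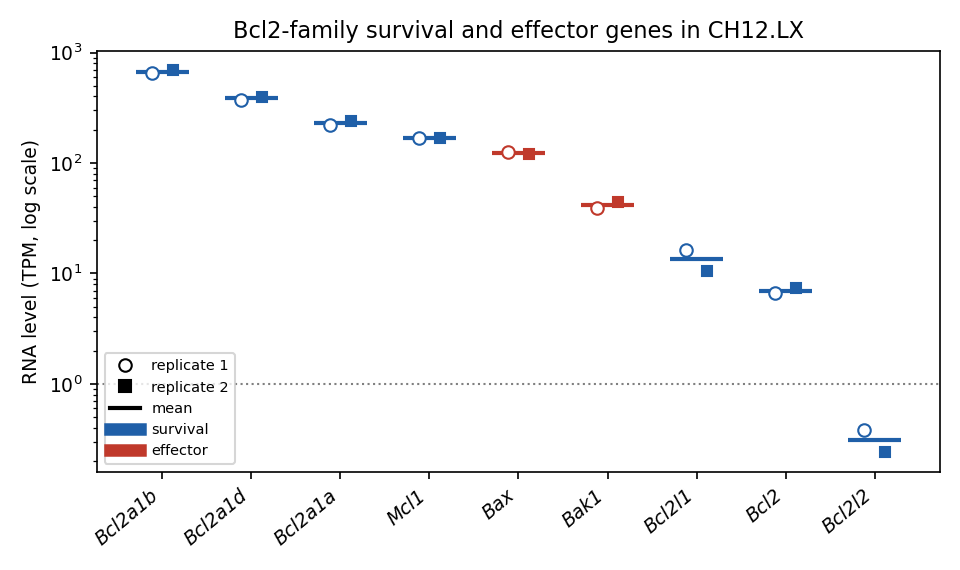
RNA level of the 9 members in TPM on a log axis, with open circles for replicate 1, filled squares for replicate 2 and bars for the mean; survival genes are blue, effector genes red, and the dotted line marks 1 TPM. The copies of Bcl2a1 lie between 223 and 697 TPM, Bax and Bak1 between 39.3 and 127 TPM, and Bcl2l2 lies below the line.

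The effector Bax (ENSMUSG00000003873.10, chr7:45461697-45466898, minus strand), which moves from the cytosol to mitochondria when activated, was the more abundant of the pair. It stood at 127 and 121 TPM (124 ± 4.09 TPM), with 1710 and 1567 counts. Bak1 (ENSMUSG00000057789.9, chr17:27019810-27029009, minus strand), whose protein resides in the mitochondrial membrane, stood at 39.3 and 44.8 TPM (42.0 ± 3.91 TPM). The replicates did not overlap, and Bax exceeded Bak1 by 3.22-fold in replicate 1 and 2.70-fold in replicate 2.

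The Bax to Bak1 ratio depended on the scale and on 1 short transcript. Bak1 held 1392 and 1293 counts, so on counts, which favour the longer gene, the ratio was 1.22 ± 0.0117. A Bak1 transcript of 416 bases, ENSMUST00000133448.1, held only 24.82 and 54.68 of these counts but 6.14 and 14.07 TPM. Without it Bak1 stood at 33.1 and 30.7 TPM, and Bax exceeded it by 3.82-fold and 3.93-fold. This calculation was chosen after the values were seen. For Bax, 14.9% of the 76-base subsequences and 0% of the 200-base ones also occur in Gm45808, a model that overlaps it on the same strand. Gm45808 has no entry among the deposited genes, so the counts and TPM of Bax include any reads of that model over the shared exons. Ggnbp1, whose exons overlap Bak1 on the opposite strand, held 167.24 and 220.37 counts (6.09 ± 0.537 TPM). Whether counting used the strand is not given in the sources used here, so reads from that overlap cannot be told apart.

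Ordered by mean TPM, the members ran Bcl2a1b, Bcl2a1d, Bcl2a1a, Mcl1, Bax, Bak1, Bcl2l1, Bcl2 and Bcl2l2. For each neighbouring pair, both replicates of the higher gene lay above both of the lower. The closest neighbours were Mcl1 and Bax, at 1.36-fold ± 0.0360, and Bcl2a1a and Mcl1. The ratios of Bak1 to Bcl2l1 were 2.39 and 4.28.

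Survival transcripts outnumbered effector transcripts per length in both libraries, and the copies of Bcl2a1 made up most of them. The 7 survival genes summed to 1437 and 1519 TPM and the effectors to 165.87 and 165.62 TPM, a ratio of 8.66 and 9.17 (8.92 ± 0.361). Without the 3 copies the ratio was 1.16 and 1.12 (1.14 ± 0.0286). On counts the ratio was 9.68 ± 0.470, and 4.29 ± 0.0511 without the copies. These are ratios of RNA levels, and no protein was measured. The effector sums include the 416-base Bak1 transcript, at 6.14 and 14.07 TPM, and their near equality depends on it. Without that transcript Bak1 stood at 33.1 and 30.7 TPM, lower in replicate 2, as Bax was at 127 and 121 TPM. The ratios of survival to effector transcripts were not computed without it.

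The make-up of the survival transcripts differed with the scale. On TPM, the copies took 87.2% ± 0.839, Mcl1 11.4% ± 0.524, Bcl2l1 0.915% ± 0.321 and Bcl2 0.474% ± 0.0134. On expected counts, the copies took 55.7% ± 1.62 and Mcl1 38.9% ± 1.12. Bcl2l1 exceeded Bcl2 on TPM in both replicates and was below it on counts in both, with count ratios of 0.752 and 0.431.

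**Figure D3:**
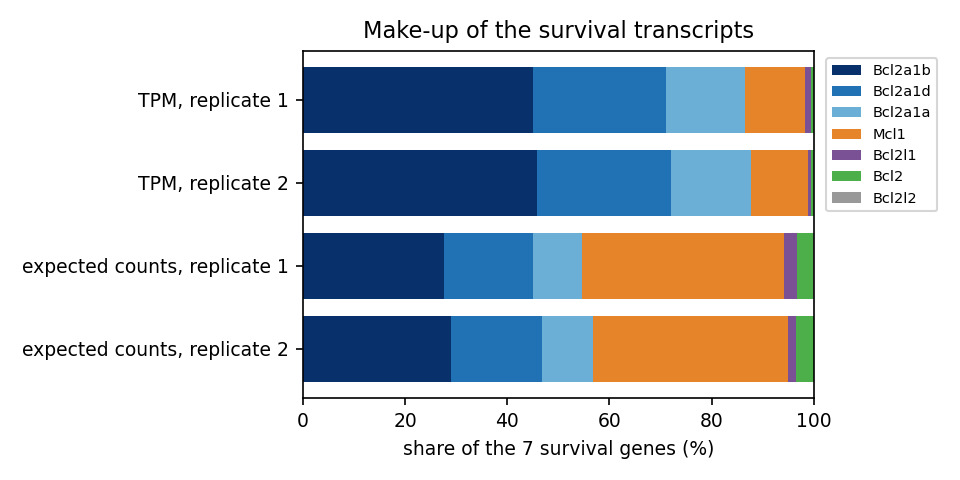
Share of each survival gene, in percent of the 7 genes summed, in each replicate on TPM (upper bars) and on expected counts (lower bars). The 3 blue segments, the Bcl2a1 copies, cover 87.2% on TPM and 55.7% on counts on average, and Bcl2l2 is too small to be seen.

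The transcripts of Bak1 split between forms that differ in coding sequence. Bak1-202, with a coding sequence of 627 bases, took 48.09% and 44.86% of the gene's TPM. Bak1-201, annotated as a target of nonsense-mediated decay with a coding sequence of 453 bases, took 35.65% and 23.2%. The 416-base transcript took 15.65% and 31.4%. In counts, Bak1-202 held 853.91 and 872.3, and Bak1-201 held 512.25 and 365.05, with posterior SDs of 54.2 and 50.8 for Bak1-201. The replicates of Bak1-202 lay above those of Bak1-201.

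Bak1-201 contains an exon of 20 bases that Bak1-202 lacks, at chr17:27021663-27021682 on the minus strand of GRCm38. It is shown because its length is not a multiple of 3 and the annotated coding sequences of these forms differ. An alternatively spliced short Bak1 exon is known from neurons, and whether it is the same exon was not examined. The lines below give the exon in capitals with 10 bases of each neighbouring exon, and the join of the same exons where it is skipped.
Bak1-201: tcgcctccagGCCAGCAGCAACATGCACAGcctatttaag
Bak1-202: tcgcctccagcctatttaag

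These Bak1 forms also differ in the first exon, which is 168 bases long in Bak1-201 and 599 bases in Bak1-202. The deposited tables give counts per transcript and not per exon, so the share of RNA with the 20-base exon could not be measured on its own.

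Bcl2l1 RNA was mostly assigned to full-length Bcl-xL. Bcl2l1-201 and Bcl2l1-202, which share a coding sequence length of 699 bases and differ in the first exon, took 86.85% and 86.9% of the gene's TPM and 93.7% ± 0.223 of its counts. Bcl2l1-201 alone took 72.8% and 72.54%. By posterior mean TPM the shares were lower, at 79.4% and 76.9% for both forms and 66.5% and 62.4% for Bcl2l1-201 alone. The division between these forms was uncertain: the posterior SD of Bcl2l1-202 was 32.9 counts on 112.97 in replicate 1 and 28.2 on 70.68 in replicate 2. Bcl2l1-206, which reads past the donor site and has a coding sequence of 627 bases, took 4.2% and 5.52%. Of 9 listed Bcl2l1 transcripts, 4 had counts in both replicates. The pro-death short form Bcl-xS uses a donor site inside the 676-base coding exon. No transcript of the reference annotation has one there, so that form could not be counted.

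The transcripts of Mcl1 and Bcl2 were nearly all of 1 form each. Mcl1-201, with a coding sequence of 993 bases, took 99.88% and 99.54% of the Mcl1 TPM. The short form Mcl-1S, which promotes death, skips the middle exon of 248 bases. No annotated Mcl1 transcript lacks it, so that form could not be counted either. Bcl2-201, which encodes Bcl-2 alpha with its membrane anchor, took 94.72% and 95.87%. Bcl2-202, a single-exon transcript that reads into the intron, took the rest, on 19.26 and 15.91 counts. Bax and each Bcl2a1 copy had 1 listed transcript. All Bcl2l2 counts were placed on Bcl2l2-201, but by posterior mean TPM that transcript took 40.5% and 32.06%, so these few reads do not settle its form.

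**Figure D4:**
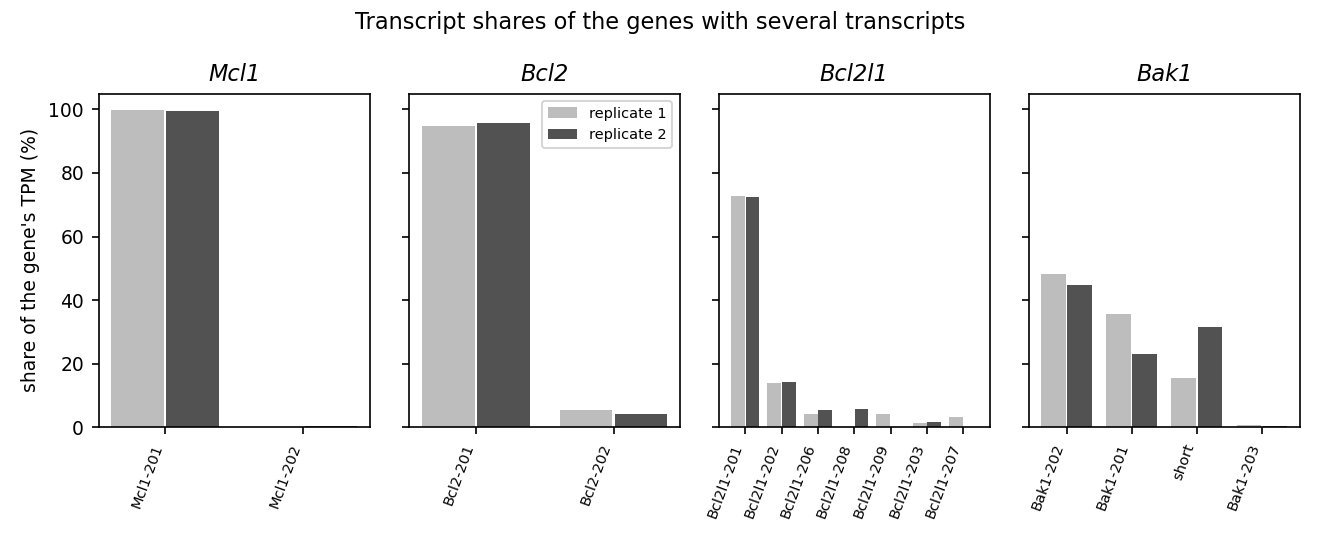
Share of each gene's TPM taken by its transcripts, in percent, in replicate 1 (light bars) and replicate 2 (dark bars), for the 4 expressed members with several transcripts; transcripts at 0 in both are left out, and "short" is the 416-base Bak1 transcript. Mcl1-201 and Bcl2-201 stand above 94%, while Bak1-202 and Bak1-201 take between 23.2% and 48.09%.

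Between the libraries, Bcl2l1 was the 1 member of 9 past 1.5-fold on the log2(TPM + 0.5) scale, where 2.69% of the 11661 genes passed. The level of Bcl2l1 was lower in replicate 2, a difference of -0.63 on that scale. Its counts were 706 (95% Poisson interval 655 to 760.06) and 431 (391 to 474). The intervals do not overlap, but they cover counting error only, and the libraries as a whole differed beyond it. Among 3675 genes with a count within a factor of 2 of that of Bcl2l1, 99.0% had a smaller difference in size and 1.31% passed 1.5-fold.

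The other members differed by less than 1.5-fold on TPM. The 3 copies of Bcl2a1 were all higher in replicate 2, by 0.09 to 0.11, beside a median size of difference of 0.14 over all genes tested. Mcl1 differed by -0.01, Bax by -0.07 and Bcl2 by 0.13. Bcl2l2, at 0.38 and 0.24 TPM, differed by -0.25 on this scale, which understates low genes such as this, whose TPM is below the added 0.5. On TMM-scaled counts it differed by -0.64 and also passed 1.5-fold, as did 3.65% of all genes tested. Of the 813 genes with a count within a factor of 2 of that of Bcl2l2, 10.5% passed 1.5-fold on the log2(TPM + 0.5) scale.

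The direction for Bak1 depended on the scale. By TPM it was 0.19 higher in replicate 2, while its TMM-scaled counts differed by -0.04. Its deposited effective length, which averages over transcripts, was 1696 bases in replicate 1 and 1439 in replicate 2. Without the 416-base transcript the TPM difference was -0.11.

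**Figure D5:**
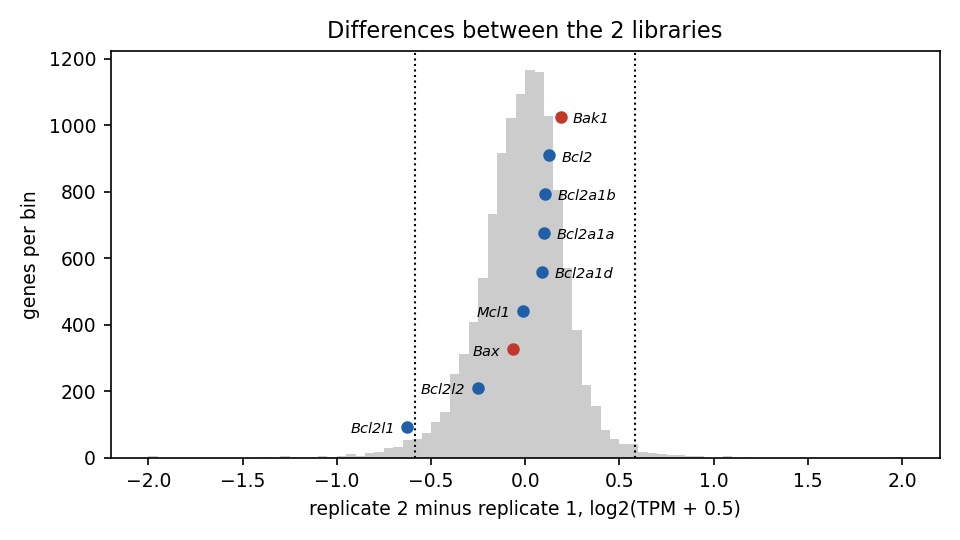
Difference of log2(TPM + 0.5), replicate 2 minus replicate 1, for the 11661 genes with a mean of 20 or more expected counts (grey, genes per bin of the vertical axis; values beyond 2 are placed at 2) and for the members (points, whose height carries no value). Dotted lines mark 1.5-fold, and Bcl2l1 at -0.63 is the only member outside them.

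Other genes of the pathway were taken from lists grouped by function. Between replicates, 0 of the 30 genes in these lists with a mean of 20 or more expected counts differed by more than 1.5-fold, which is near the share of 2.69% over all genes. Of 8 BH3-only genes, 6 were at 1 TPM or more in each library, and the list's median was 13.5 TPM. Bid, which caspase-8 cleaves into an activator of Bax and Bak, was highest at 113 and 101 TPM (107 ± 9.001 TPM), below Bax in both libraries. Pmaip1, which encodes Noxa, a partner of Mcl1 and A1, stood at 55.5 and 71.7 TPM (63.6 ± 11.4 TPM). Bcl2l11, the gene of Bim, stood at 8.94 and 7.76 TPM, and Hrk had 0 counts.

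Of 7 other multidomain family genes found, 4 reached 1 TPM, with a list median of 2.335 TPM and Bcl2l15 highest at 14.9 ± 0.764 TPM. Bok, an effector relative of Bax and Bak, and Bcl2l10 had 0 counts. All 6 genes listed as mitochondrial membrane partners were expressed. They hold 4 outer-membrane genes, from Mtch2 at 127 ± 7.40 TPM to Vdac2, a channel that binds Bak and Bax, at 389 ± 32.6 TPM. The other members of the list, Slc25a4 at 311 ± 2.43 TPM and Slc25a5 at 865 ± 54.6 TPM, encode ADP/ATP carriers of the inner membrane, and the list median of 301 TPM includes them. Vdac2, at 366 and 412 TPM, stood above Bak1 in both libraries. Of 7 genes that act on Mcl1 protein turnover, 6 were expressed, with a median of 28.2 TPM. Cdc20 led at 167 ± 5.32 TPM, the ligase gene March5 stood at 123 ± 1.15 TPM, and Trim17 had 0 counts. All 8 genes downstream of the pore were expressed, with a median of 38.3 TPM. They ran from Casp9, the initiator caspase of the apoptosome, at 3.42 ± 0.813 TPM to the protease gene Htra2 at 100.01 ± 2.97 TPM.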

How the data were processed

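RNA sequencing of CH12.LX, 2 libraries of 1 group, was analysed from gene and transcript tables. Per the file headers, the authors used mm10 and GENCODE M4; the aligner and quantification tool are not given in those sources. The deposited expected counts are estimated reads per feature with shared reads divided, not normalized. TPM and FPKM, deposited by the authors, are scaled by length and library. The deposited isoform percent gives each transcript's part of the TPM of its gene, and the posterior mean and SD of counts were deposited too. Symbols, coordinates and transcripts came from GENCODE M21 on GRCm38, matched by identifier without version (42462 of 43346 genes). The gene identifiers printed beside the coordinates carry the deposited version numbers, which differ from those of M21 for some members.

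Differences are log2(TPM + 0.5), replicate 2 minus replicate 1, over genes with a mean of 20 or more expected counts. With 1 group, no test was run. Named genes are the 9 members and, of each pathway list, the highest, the lowest and a few others needed to describe it (Pmaip1, Bcl2l11, Bok, Vdac2 and March5 among them, picked with their values known). Members and lists were chosen with earlier results of these data known. A planned comparison of proteins was replaced by coding sequences, and the 200-base subsequences were added after the effective lengths were seen. The differences step was tested on simulated data. Alternatives were posterior mean TPM, FPKM, TMM factors (edgeR 4.0.16) and size factors (DESeq2 1.42.0) on rounded expected counts, other pseudocounts and limits, and each replicate alone. Python 3.11.15 and R 4.3.3 were used.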

Additional observations from a re-analysis of the deposited data

How the results depend on the processing

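Of 199 alternatives computed over 45 results, 174 kept direction and stayed on the same side of the limit or within the replicate spread. For results judged by the replicate spread, part of this was fixed in advance. Either of 2 replicates always lies within 1 SD of their mean, and FPKM brought to the same total repeats TPM. The ratio of survival to effector transcripts was 8.92 on TPM, 9.68 on expected counts and 1.14 without the 3 Bcl2a1 copies. The share of the copies fell from 87.2% to 55.7% on expected counts, which are not corrected for length. The Bax to Bak1 ratio was 2.96 on TPM, 1.22 on expected counts and 3.88 without the 416-base Bak1 transcript, the last chosen after seeing the data. The number of members past 1.5-fold was 1 on TPM and 2 on TMM-scaled and on size-factor-scaled counts, where Bcl2l2 joined Bcl2l1 at -0.64 and -0.63. Over all genes, 3.65% and 3.68% passed under those scalings. The Bak1 difference of 0.19 turned to -0.044 on TMM-scaled and -0.040 on size-factor-scaled counts and to -0.11 without the 416-base transcript. On TPM 314 of 11661 genes (2.69%) passed, 513 (4.40%) with a pseudocount of 0.1, and 957 of 43346 (2.21%) with no filter on counts, a lower share of more genes. The share of Bcl2l1-201 moved from 72.7% to 64.4% with posterior mean TPM. Of 45 alternatives for levels, 2 moved by more than the replicate SD, both with posterior mean TPM: Mcl1 at 164 TPM and Bcl2l2 at 0.785 TPM. For Mcl1 this was 0.975 times the level on TPM, past a replicate SD of only 1.10 TPM. For Bcl2l2 it was 2.53 times. The single-replicate and FPKM settings among the 45 could not move by that much. No paired analysis was possible because the libraries form 1 group. With 2 libraries the SDs are imprecise, and depth limits Bcl2l2 most.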
